A study of Mus musculus with 2 samples.

Results

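Long noncoding RNAs that gave rise to small RNAs of piRNA size were examined in testes without Tdrkh. A host was a gene of the GENCODE M21 types lincRNA, antisense, processed_transcript or TEC (a class that still awaits experimental proof) with at least 100 reads of 24 to 30 nt summed over both libraries. Its reads were sequences that match it in sense and no other gene in sense. Of the 12822 annotated genes of these 4 types, 4842 had at least 1 such read after 10 genes had been left out by name, and 584 reached the minimum. These 584 hosts comprised 215 lincRNA, 113 antisense, 84 processed_transcript and 172 TEC genes. Of the 10 genes left out, 8 were at least 2-fold lower in Tdrkh-/- at both lengths examined and 1 was at least 2-fold higher at both, so the hosts were chosen partly on the contrast described here. Differences between the genotypes in read counts are therefore given as descriptions.

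Testes were taken 11 days after birth, and 1 small RNA library was sequenced from Tdrkh-/- and 1 from Tdrkh+/- mice, each from 5 pooled pairs of testes. Tdrkh-/- mice carry an excision of exons 2 to 4, which include the start codon, on both alleles, and Tdrkh+/- mice carry it on a single allele, so no library from mice with both alleles intact was compared. The floxed allele was made in D2 embryonic stem cells of mixed C57Bl6/129SEV origin, the neomycin cassette was removed with FLP, and the exons were excised with EIIa-Cre, a transgene that intercrosses later removed. The design text describes 2 independent knockout lines on a C57Bl6/129 background, without stating which line gave the testes.

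piRNAs are small RNAs bound by PIWI proteins of the germ line, where they direct the silencing of transposons. Long single-stranded precursors, among them many noncoding transcripts and the untranslated ends of messenger RNAs, are cut into intermediates that typically begin with U, and the 3′ ends of these intermediates are then shortened. The Tdrkh protein carries Tudor and KH domains and sits on mitochondria, and in mice it is known for its part in that shortening.

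Sequencing depth was 60973266 reads (12118721 distinct sequences) in Tdrkh-/- and 43172204 reads (11808018) in Tdrkh+/-. Exons 2 to 4 of Tdrkh, on chromosome 3 (GRCm38, 94422802 to 94424690), gave 0 sense reads in Tdrkh-/-, against 17 in Tdrkh+/-, while its other exons gave 784 and 1115. Levels are expressed per microRNA read, of which there were 2482747 in Tdrkh-/- and 2359299 in Tdrkh+/-. Ratios divide Tdrkh-/- by Tdrkh+/-. As each genotype has a single library, differences lack a replicate check, and no test was run. Reads of 24 to 30 nt are called piRNA-length reads below, and those of 31 to 37 nt long reads. Intervals are 95% intervals of counting error alone, since the reads carry no molecular identifiers and need not be independent molecules. In pooled tissue, fewer cells of a type and less RNA per cell cannot be told apart, and small RNA reads do not measure the messenger RNAs that mark the cell types of the testis.

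The most read small RNAs of 4 abundant hosts, printed 5′ to 3′ in the DNA letters of the deposited tables, show what was counted. Capitals mark the 3′ bases by which the commonest length of that 5′ end in one library exceeds the commonest length in the other.
AU020206: tgaggacccgcaatgaagcaaatggctgt
1700029M20Rik: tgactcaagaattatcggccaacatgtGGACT
Gm47652: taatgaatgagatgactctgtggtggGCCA
Gm2762: tgccaacccgattatcaatgactagtgctc

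In GRCm38 coordinates the sequence of AU020206 lies at chr7:75769657-75769685 on the minus strand, that of 1700029M20Rik at chr4:135629837-135629868 on the plus strand, that of Gm47652 at chr9:37334093-37334122 on the minus strand and that of Gm2762 at chr13:53401550-53401579 on the plus strand. All of them lie in exons of the noncoding transcripts. The 32 nt form of the 1700029M20Rik end had 1199 reads in Tdrkh-/- and 1067 in Tdrkh+/-, whereas the 27 nt form, without the capitals, had 23 reads in Tdrkh-/- and 1859 in Tdrkh+/-. At Gm47652 the 30 nt form had 1092 reads in Tdrkh-/- and 159 in Tdrkh+/-, and the 26 nt form had 508 and 6579. The ends of AU020206 and Gm2762 had the same commonest length in both libraries, at 29 and 30 nt. The AU020206 form had 1139 reads in Tdrkh-/- and 1564 in Tdrkh+/-, and the Gm2762 form had 28 and 1668.

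Most hosts had fewer piRNA-length reads and more long ones in Tdrkh-/-. Summed over the hosts there were 234238 piRNA-length reads in Tdrkh-/- and 534465 in Tdrkh+/-, and 489519 and 115066 long reads. The median log2 ratio over the 584 hosts was -1.42 at piRNA length, with an interquartile range of -2.46 to -0.26. At long length it was 2.26 (1.24 to 3.30) over the 581 hosts with more than 3 such reads in at least 1 library. The same medians were -1.52 and 1.51 over 8501 protein-coding genes with the same minimum. They were -1.51 and 1.54 over the 9095 protein-coding and long noncoding genes that reached it, the 10 left out by name among them. These 9095 hold no other gene types and are called all genes below.

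The fold marks set the hosts beside those 9095 genes. Of the 584 hosts, 371 were at least 2-fold lower at piRNA length, against 72.6% of all genes, and 63 were at least 2-fold higher, against 1.84%. At long length, 464 hosts were at least 2-fold higher, against 72.7% of all genes, and 32 were at least 2-fold lower, against 1.35%. The exchange of shorter for longer reads, lower at piRNA length and higher at long length by any amount, was seen in 393 hosts, or 67.3%, and in 88.9% of all genes. More long reads per piRNA-length read in Tdrkh-/- were counted in 557 hosts, or 95.4%, against 98.8% of all genes. The median host had 1.88 long reads per piRNA-length read in Tdrkh-/- and 0.155 in Tdrkh+/-. The rule used this contrast, so nothing is read from these shares.

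**Figure D1:**
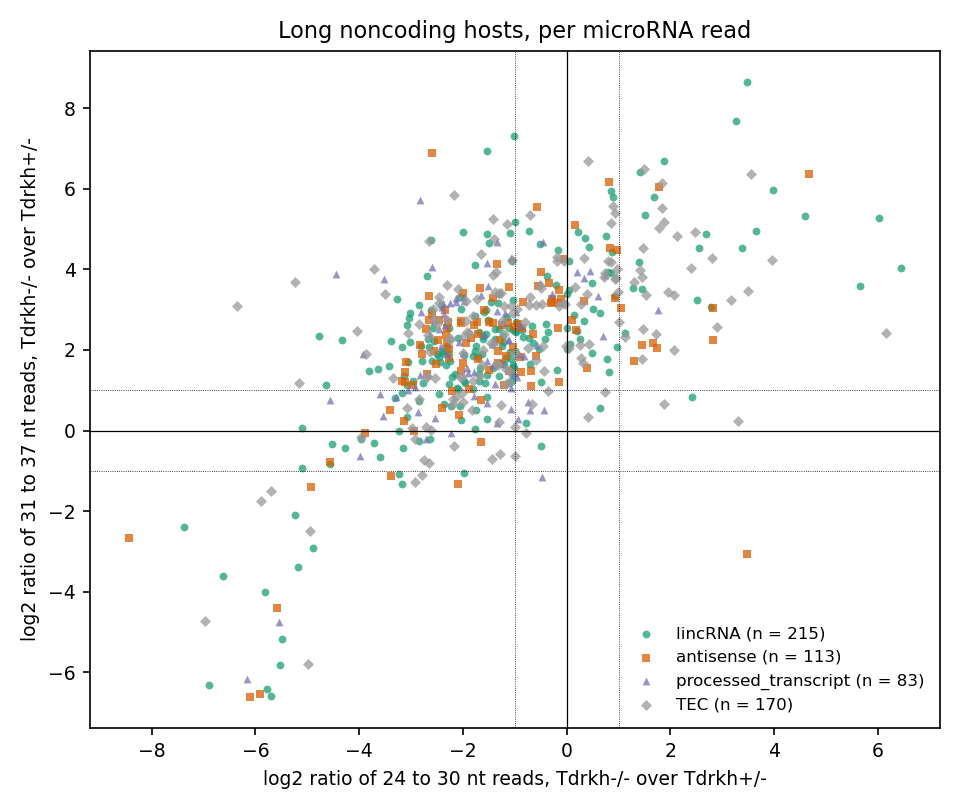
Each point is a host, placed by its log2 ratio of Tdrkh-/- to Tdrkh+/- per microRNA read at piRNA length (horizontal axis) and at long length (vertical axis), for the 581 hosts with a ratio at both lengths. Dotted lines mark 2-fold. Most points lie in the upper left, 30 hosts lie beyond 2-fold in the lower left and 59 in the upper right.

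The name given to the group, hosts of ordinary behaviour, was checked against these counts. Both lengths were at least 2-fold lower in 30 hosts, against 1.3% of all genes, and at least 2-fold higher in 59 hosts, against 1.64%. These 89 hosts go against the name, so the genes are called long noncoding hosts here. The minimum itself bears on the extremes, since it was set on the sum of both libraries. Of the hosts, 195 reached 100 reads in both libraries, 54 in Tdrkh-/- alone, 236 in Tdrkh+/- alone and 99 by the sum alone. Just inside the minimum, Gm45743 had 16 reads in Tdrkh-/- and 84 in Tdrkh+/-, and just outside it, Gm48223 had 16 and 83.

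The 10 most read hosts held 29.4% of the piRNA-length reads in Tdrkh-/- and 39.6% in Tdrkh+/-. Most of them are known only as clones or gene models, and no role is given to them here. AU020206, an unspliced lincRNA transcript of 3009 nt on chromosome 7, had 14144 piRNA-length reads in Tdrkh-/- and 33014 in Tdrkh+/-. It had 31827 and 5250 long reads. It thus had fewer shorter and more longer reads in Tdrkh-/-, with log2 ratios of -1.30 (-1.32 to -1.27) and 2.53 (2.48 to 2.57).

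The direction was the same for 5 further hosts among the 10. Gm38194, a TEC gene on chromosome 1, had 18049 piRNA-length reads in Tdrkh-/- and 28938 in Tdrkh+/-, and 47029 and 10757 long reads. Gm30948 had log2 ratios of -0.67 and 2.59, and Gm42860 had -0.52 and 3.62. Their loss of shorter reads was less than 2-fold. Many reads of these hosts also match the opposite strand of another gene. Without such sequences Gm38194 kept 195 piRNA-length reads in Tdrkh-/- and 443 in Tdrkh+/-, with log2 ratios of -1.26 and 3.81. Gm42860 kept 735 and 1140, with -0.71 and 4.12. Gm10010 had 3934 piRNA-length reads in Tdrkh-/- and 20305 in Tdrkh+/-, with log2 ratios of -2.44 and 1.70. Gm5113 had 3410 and 12783, with log2 ratios of -1.98 and 1.87.

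The other 4 of the 10 were lower at both lengths, and at long length by less than 2-fold. 1700029M20Rik, a lincRNA of chromosome 4 spliced from 3 exons, had 1879 piRNA-length reads in Tdrkh-/- and 27735 in Tdrkh+/-, and 5176 and 5646 long ones. Its log2 ratios were -3.96 (-4.03 to -3.89) and -0.20 (-0.25 to -0.14). Gm2762 had ratios of -4.27 and -0.43, D130017N08Rik of -3.60 and -0.66, and Gm47652 of -2.17 and -0.38. Without sequences that match another gene on the opposite strand, Gm47652 kept 479 piRNA-length reads in Tdrkh-/- and 3784 in Tdrkh+/-. Its ratios were then -3.06 and -0.61. At 1700029M20Rik the reads that remained in Tdrkh-/- had a mean length of 32.4 nt, against 28.1 nt in Tdrkh+/-. Within Tdrkh-/-, all 10 hosts therefore had more long reads per short read than in Tdrkh+/-, also where both counts were lower.

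**Figure D2:**
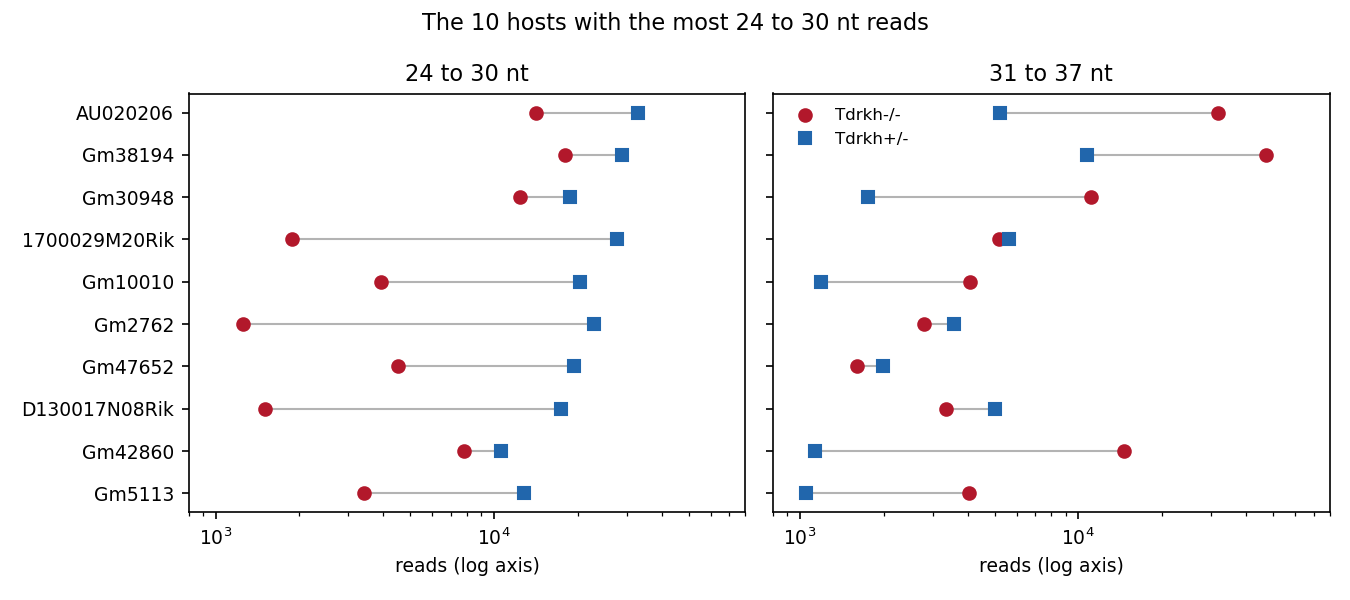
Reads of 24 to 30 nt (left) and 31 to 37 nt (right) of the 10 most read hosts, on a log axis, with Tdrkh-/- as circles and Tdrkh+/- as squares, not scaled to microRNA reads. At piRNA length every circle lies left of its square, and at long length it lies right of the square for 6 hosts.

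Length profiles put the difference on a finer scale. Of the host reads of 24 to 40 nt, 3.40% were of 27 nt in Tdrkh-/- and 20.1% in Tdrkh+/-, the commonest length there. The commonest length in Tdrkh-/- was 31 nt, with 9.64% of reads against 6.47% in Tdrkh+/-, followed by 35 nt with 9.24% against 1.39%. Per microRNA read the ratio was lowest at 26 nt, at 0.178, reached 1.09 at 30 nt and was 8.15 at 37 nt. Protein-coding genes peaked at 32 nt in Tdrkh-/-, with 10.1% of their reads, and at 27 nt in Tdrkh+/-, with 21.3%.

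**Figure D3:**
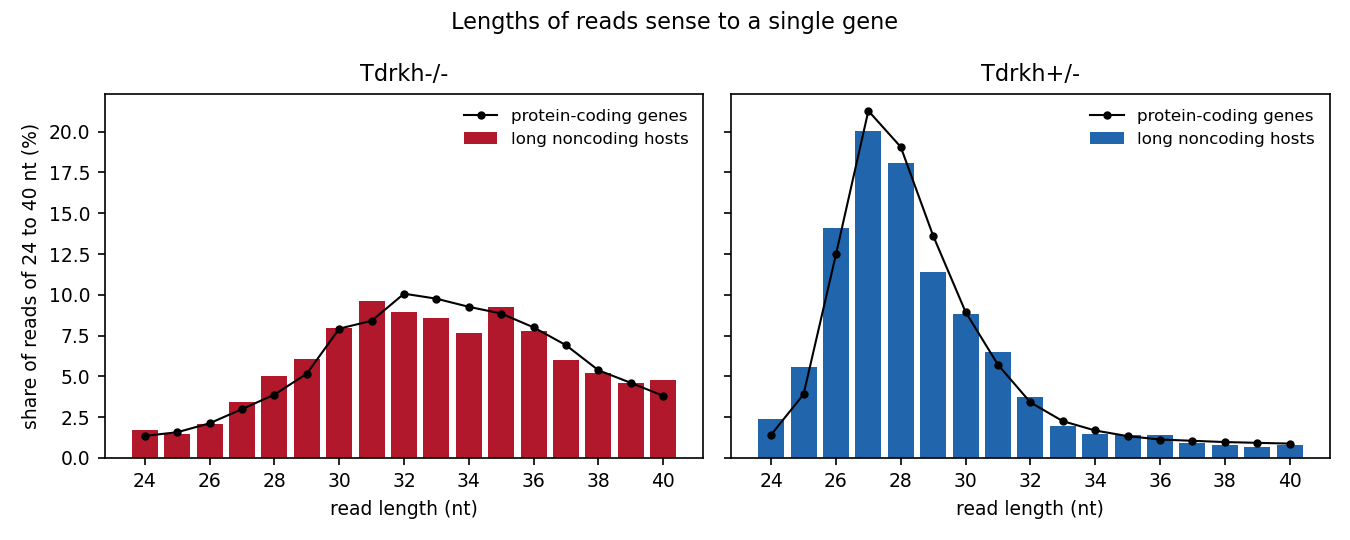
Share of reads at each length from 24 to 40 nt, for the hosts (bars) and for protein-coding genes (points and line), in Tdrkh-/- (left) and Tdrkh+/- (right). Host reads peak at 31 nt in Tdrkh-/- and at 27 nt in Tdrkh+/-.

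Longer and shorter reads began at the same places in many hosts. There were 1610 5′ ends, in 314 hosts, each read 20 times or more in both libraries. Reads from these ends had mean lengths with a median of 31.03 nt in the Tdrkh-/- library, against 28.45 nt in the Tdrkh+/- library. The difference, Tdrkh-/- minus Tdrkh+/-, had a median of 1.88 nt and an interquartile range of 0.62 to 3.57 nt, and 88.1% of the ends had the longer mean in Tdrkh-/-. The commonest length was longer in Tdrkh-/- at 876 ends, or 54.4%, equal at 602, or 37.4%, and shorter at 132, or 8.20%. The 1700029M20Rik end printed above belongs to the first kind and the AU020206 end to the second.

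Of the 489519 Tdrkh-/- long reads, 83.7% (Wilson interval 83.5 to 83.8) began with the first 24 nt of a Tdrkh+/- piRNA-length read. At starts shifted along the transcript by 1 to 10 nt the median share was 49.5% and the highest 62.5%. Among starts with a U, the share was 85.5% at the true start, whereas shifted ones had 73.1% in the median and 84.2% at most. Counted by distinct sequence, the share was 57.2%, and shifted starts had 30.1% in the median and 34.1% at most. Among starts with a U the gap by distinct sequence was smaller, with 61.8% at the true start. Shifted starts with a U then had 50.3% in the median and 56.5% at most. The most read 5′ end was the same in both libraries for 198 hosts, or 33.9%.

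A 5′ U, the usual first base of primary piRNAs, was frequent at both lengths. At piRNA length, 72.2% of Tdrkh-/- reads and 80.3% of Tdrkh+/- reads began with U, and at long length 72.3% and 73.5%. By distinct sequence the shares were 69.3% and 68.7% at piRNA length, so the genotypes no longer stood in the same order. At long length they were 70.6% and 68.4%. Hosts with under 10% of reads matching the opposite strand of another gene had shares by reads of 80.9% and 84.7% at piRNA length. Their shares at long length were 75.9% and 74.1%, in the other order than over all hosts. Across the transcripts themselves U made up 27.5% of the 1826962 bases.

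The base just after the 3′ end of a read was more often U in Tdrkh-/-. By distinct sequence, the base following a long read was U for 45.7% in Tdrkh-/- and 35.3% in Tdrkh+/-. For piRNA-length reads it was U for 43.3% and 28.8%, against the 27.5% of all transcript bases. The last base of the reads themselves was U for 31.6% and 32.7% at long length.

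A 5′ end of another read lay directly after the 3′ end more often than at other distances. In Tdrkh-/-, 7.97% of the distinct 3′ ends of long reads had a 5′ end at the next base, against a median of 5.34% and a range of 4.76 to 6.14% at all other distances from 10 nt before to 30 nt after the last base. In Tdrkh+/- the share was 11.1%, against 8.79% (7.87 to 10.3%). For piRNA-length reads the share was 8.16% in Tdrkh-/-, against 5.96% (5.11 to 6.54%), and 8.65% in Tdrkh+/-, against 8.32% (7.01 to 9.36%). At the next base the shorter Tdrkh+/- reads were within the range of other distances, whereas the other 3 sets of reads were above theirs. The number of 5′ ends differed between libraries, so the levels of the 2 libraries are not compared.

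**Figure D4:**
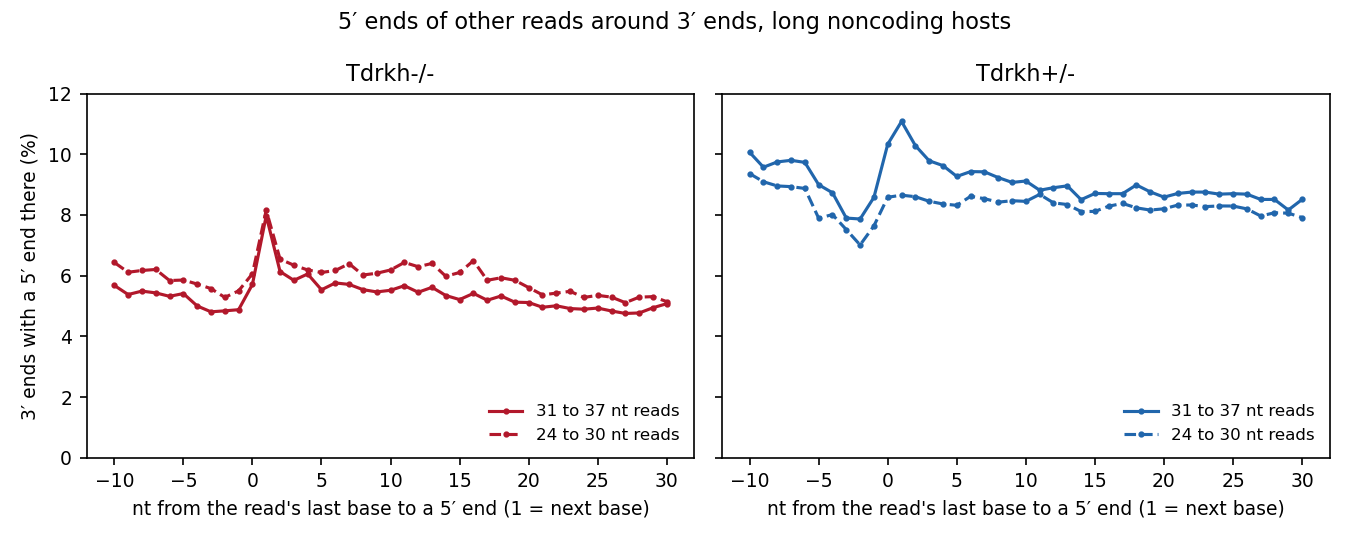
Share of distinct 3′ ends of host reads that have a 5′ end of another read at each distance, from 10 nt before to 30 nt after the last base, in Tdrkh-/- (left) and Tdrkh+/- (right), for 31 to 37 nt (solid) and piRNA-length reads (dashed). A peak at the next base reaches 7.97% and 8.16% in Tdrkh-/- and 11.1% for long reads in Tdrkh+/-.

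Of the 4 gene types, TEC genes had the smallest median difference at piRNA length and the largest at long length. Their median log2 ratios were -1.16 at piRNA length and 2.60 at long length, and 30 of the 172, or 17.4%, were at least 2-fold higher at piRNA length, against 10.8% of all hosts and 1.84% of all genes. LincRNA genes had -1.54 and 2.14, antisense genes -1.50 and 2.25, and processed_transcript genes -1.56 and 2.14. TEC genes are nearly all unspliced models, with a single exon in 170 of 172. They also had more sequences that match the opposite strand of another gene, in at least 50% of reads for 46 of them. Among hosts with such matches in under 10% of reads, the medians at piRNA length were -1.35 for 97 TEC genes and -1.56 for 163 lincRNA genes. At least 2-fold higher at piRNA length were 9 of these TEC genes, or 9.28%, and 14 of these lincRNA genes, or 8.59%. Over all 394 hosts with so few matches the share was 6.85%, so the TEC genes stood out less than in the full set. The part that these matches play in the difference was not tested.

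Host genes of small nucleolar RNAs, whose exons are left over when the small nucleolar RNAs are cut from their introns, numbered 11 of the 17 annotated in the list. Their median log2 ratios were -1.53 at piRNA length and 1.27 at long length. The exchange was seen in 10 of the 11, or 90.9%, near the 88.9% of all genes. By 2-fold or more, 9 were lower at piRNA length and 9 higher at long length, 81.8% each, against 72.6% and 72.7% of all genes. Per read listed, 3 were still that much higher at long length, or 27.3%, against 54.9% of all genes on that scale. Snhg17 had 848 piRNA-length reads in Tdrkh-/- and 1739 in Tdrkh+/-, and 1986 and 817 long ones. Gas5, a growth arrest transcript with 12 exons, had 359 and 986, and 728 and 211. Both had fewer shorter and more longer reads in Tdrkh-/-.

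Other members of that list spanned a wider range. At piRNA length the log2 ratio was -3.07 for Snhg5, -2.85 for Epb41l4aos, -2.21 for Snhg12, -1.95 for Snhg6, -1.43 for Zfas1, -1.07 for Snhg15 and -0.90 for Snhg1. At long length these hosts lay between 0.72 for Epb41l4aos and 2.62 for Snhg1. Snhg14, with 75 piRNA-length reads in Tdrkh-/- and 508 in Tdrkh+/-, had a ratio of -2.83. Without sequences that match another gene on the opposite strand its ratio was 1.51, on only 36 reads in Tdrkh-/- and 12 in Tdrkh+/-. Dancr differed from the rest, with 146 piRNA-length reads in Tdrkh-/- and 89 in Tdrkh+/- and with 0 and 1 long reads, too few for a ratio.

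Of 7 annotated widely expressed nuclear RNAs, 4 were hosts, and all 4 were at least 2-fold lower at piRNA length and higher at long length, as were 72.6% and 72.7% of all genes. Neat1, the scaffold of nuclear paraspeckles, had 318 piRNA-length reads in Tdrkh-/- and 1506 in Tdrkh+/-, and 989 and 303 long ones. Malat1, a nuclear speckle RNA, had 152 and 502, and 386 and 180. Both had fewer shorter and more longer reads in Tdrkh-/-. Tug1 had log2 ratios of -1.87 and 1.03. The values at long length of Tug1 and Malat1, 1.03 each, lay just past 2-fold and became 0.61 and 0.60 per read listed, and that of Malat1 was 0.59 without sequences that match another gene on the opposite strand. The ratios of 2900097C17Rik, the mouse counterpart of the Pumilio-binding RNA NORAD, were -1.11 and 2.54.

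Imprinted and X-linked regulators did not share a single pattern. H19, an RNA of the maternal allele, had 75 piRNA-length reads in Tdrkh-/- and 281 in Tdrkh+/-, and 109 and 44 long ones. Kcnq1ot1, a paternally expressed antisense RNA that silences its neighbours, had 1332 and 665, and 2066 and 200. The shorter reads were thus fewer for H19 and more numerous for Kcnq1ot1 in Tdrkh-/-. The log2 ratios were -1.98 (-2.37 to -1.61) for H19 and 0.93 (0.79 to 1.06) for Kcnq1ot1. With a few mismatches allowed and on either strand, the start of the most read end of Kcnq1ot1 was found in 44 annotated genes. That of H19 was found in its own gene alone. The part that such copies play in the contrast between these hosts was not tested. Ftx, of the X inactivation centre, had 283 and 172 piRNA-length reads and 213 and 137 long ones. Its log2 ratio at long length was 0.56 per microRNA read and -0.011 per read that matches a transcript. The microRNA host Mir22hg had ratios of 0.60 and 3.34, and Mir9-3hg, with 22 and 188 shorter reads, had -3.17 and 0.93.

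Hosts named as RIKEN clones of testis libraries numbered 48, and their median log2 ratios were -2.29 and 1.93. At piRNA length 38 of them, or 79.2%, lay at or below -1 on the log2 scale, against 72.6% of all genes, and 2 at or above 1. At least 2-fold lower at both lengths were 11 of them, or 22.9%, against 5.14% of all hosts and 1.3% of all genes. Hosts with an opposite-strand name numbered 10, with medians of -2.36 and 2.28. The 353 Gm models had medians of -1.30 and 2.39. All of these name classes were lower at piRNA length and higher at long length in the median.

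The most read antisense and processed_transcript hosts differed among themselves. Gm49774, an antisense gene, had 197 piRNA-length reads in Tdrkh-/- and 4441 in Tdrkh+/-, and 419 and 686 long ones. Zim2, annotated as a processed_transcript gene with 5 exons, had 668 and 3412, and 1464 and 325. A730017L22Rik, of the same type, had 3817 and 2236, and 1001 and 188. The shorter reads were fewer in Tdrkh-/- for the first pair and more numerous for A730017L22Rik, whose log2 ratios were 0.70 (0.62 to 0.77) and 2.34 (2.11 to 2.57).

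In the 30 hosts that were lower at both lengths, small RNAs of either length were scarce in Tdrkh-/-. They had 924 piRNA-length reads in Tdrkh-/- and 38003 in Tdrkh+/-, and 641 and 9877 long ones. Gm14244, an antisense gene with 5 exons, had 64 piRNA-length reads in Tdrkh-/- and 4181 in Tdrkh+/-, and 8 and 745 long ones. Its log2 ratios were -6.10 (-6.48 to -5.75) and -6.61 (-7.83 to -5.63). For 4930463O16Rik the counts were 18 and 2025, and 3 and 228, with ratios of -6.89 (-7.64 to -6.22) and -6.32 (-8.61 to -4.76). The most read sequences of both hosts and of 1700020N18Rik show the kind of small RNA that was scarce.
Gm14244: tacatgaatcttcagacctgatccaaccC
4930463O16Rik: taacagtgtagcactccagttgaccAACC
1700020N18Rik: tgctctttctcctgtagctttgccttggc

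These lie at chr2:127692183-127692211 on the plus strand, chr10:84488522-84488550 on the plus strand and chr1:91405059-91405087 on the minus strand. All begin with U, written t. The capitals of Gm14244 and 4930463O16Rik mark the longer commonest form of Tdrkh+/-, 29 nt, against 28 and 25 nt in Tdrkh-/-. These Tdrkh-/- lengths rest on ends with 16 and 6 reads. From 24 to 37 nt, the end of 1700020N18Rik was read 33 times in Tdrkh-/- and 1432 times in Tdrkh+/-, and that of 4930463O16Rik 6 and 718 times. Within the 24 nt start of all 3, up to 2 mismatches allowed, no other annotated gene was found on either strand.

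Other hosts of this kind had equally few reads in Tdrkh-/-. At piRNA length, 4933412L11Rik had 10 reads in Tdrkh-/- and 1187 in Tdrkh+/-, and 1700009C05Rik had 10 and 943. Within 20 kb of 1700009C05Rik on chromosome 6 lies 1700097M23Rik, with 33 and 1869. At long length, 1700042G15Rik had 0 reads in Tdrkh-/- and 273 in Tdrkh+/-, a log2 ratio of -6.58 or lower with 3 reads set in place of 0. Gm21221 had 3 and 244 reads of that length, a ratio of -6.42 (-8.71 to -4.86), and C230062I16Rik had 4 and 271. In C230062I16Rik, 99.5% of the reads also match the opposite strand of another gene. Without them it kept 5 piRNA-length reads in Tdrkh-/- and 8 in Tdrkh+/-, and 0 and 23 long ones. Its ratios were then -0.75 and -3.01, the latter with 3 reads set in place of 0. These no longer meet the pattern, but so few reads cannot show that it is lost. Without sequences that match another gene on the opposite strand, 26 of the 30 hosts still met the pattern.

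D130020L05Rik differed from the rest of these 30. It had 10 piRNA-length reads in Tdrkh-/- and 569 in Tdrkh+/-, and 53 and 4708 long ones. Only 0.06% of its longer Tdrkh+/- reads began with U, and the start of its most read end was found in 2565 genes with up to 2 mismatches. With it, 43.2% of the longer Tdrkh+/- reads of the 30 hosts began with U, and without it 82.5%.

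In the 59 hosts that were higher at both lengths, 49307 piRNA-length reads were counted in Tdrkh-/- and 8390 in Tdrkh+/-, and 79020 and 4041 long ones. Gm49165, a lincRNA with 2 exons, had 8685 piRNA-length reads in Tdrkh-/- and 165 in Tdrkh+/-, and 254 and 20 long ones. Its ratio at piRNA length, 5.64 (5.42 to 5.88), came largely from a single end with 7084 and 98 reads. Gm36816, an antisense gene, had 3929 and 147 piRNA-length reads and 6608 and 76 long ones. The most read sequences of 4 such hosts are shown because they are related in pairs.
Gm49165: ttaagatcgagaatcgacaaatgggaccT
Gm37158: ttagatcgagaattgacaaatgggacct
Gm26905: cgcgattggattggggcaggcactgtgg
Gm36816: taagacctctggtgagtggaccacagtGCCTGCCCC

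They lie at chr14:73715120-73715148 on the minus strand, chrY:16692605-16692632 on the minus strand, chr8:58298304-58298331 on the plus strand and chr6:67009140-67009175 on the minus strand. The capital of Gm49165 marks the longer form of Tdrkh+/-, 29 nt against 28 nt. Those of Gm36816 mark the longer form of Tdrkh-/-, 36 nt against 27 nt. The stretches of 60 nt around the ends of Gm49165 and Gm37158 share a run of 14 bases in sense. Those around the ends of Gm26905 and Gm36816 share a run of 48 bases on opposite strands, so these hosts hold opposite strands of a shared sequence. Gm37158 had 6994 piRNA-length reads in Tdrkh-/- and 1199 in Tdrkh+/-, and Gm26905 had 4781 and 661. All 4 had more reads in Tdrkh-/- at both lengths. Without sequences that match another gene on the opposite strand, Gm26905 kept 6 reads in Tdrkh-/- and 0 in Tdrkh+/- at each length, and its 2-fold calls were lost. Gm36816 then kept 212 piRNA-length reads in Tdrkh-/- and 4 in Tdrkh+/-, and 856 and 2 long ones. On the same condition 44 of the 59 hosts remained at least 2-fold higher at both lengths, and per transcript-matching read 40 did.

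Hosts with this pattern also differed in size. Gm4117 had 4509 piRNA-length reads in Tdrkh-/- and 1276 in Tdrkh+/-, with log2 ratios of 1.75 and 2.05. C130073E24Rik had 685 and 27, with ratios of 4.59 and 5.31. Gm15873 had 2307 and 642, with ratios of 1.77 and 6.04, and Gm47761 had 696 and 69, with 3.26 and 7.68. The ends of the last 2 hosts were found in no other gene. Gm42519 was just under the mark at piRNA length, with 427 and 212 reads and ratios of 0.94 and 5.39.

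How widely the main small RNA of a host is found went along with its ratio. The first 24 nt of the most read end, with up to 2 mismatches and on either strand, were found in at least 20 annotated genes for 145 hosts, or 24.8%. The share was 45 of the 59 hosts higher at both lengths, or 76.3%, 4 of the 30 lower at both, or 13.3%, and 58 of the 393 with the exchange, or 14.8%. In those 145 hosts the median ratio was 0.39 (log2) at piRNA length and 2.71 at long length. The 287 hosts whose end was found in their own gene alone had -1.77 and 2.18, and the 152 between had -1.54 and 2.18. At piRNA length the medians thus differed in sign, while at long length all were positive. In hosts whose end recurs in many genes, reads of near-identical copies cannot be told from those of the host when a copy is missing from the annotation.

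**Figure D5:**
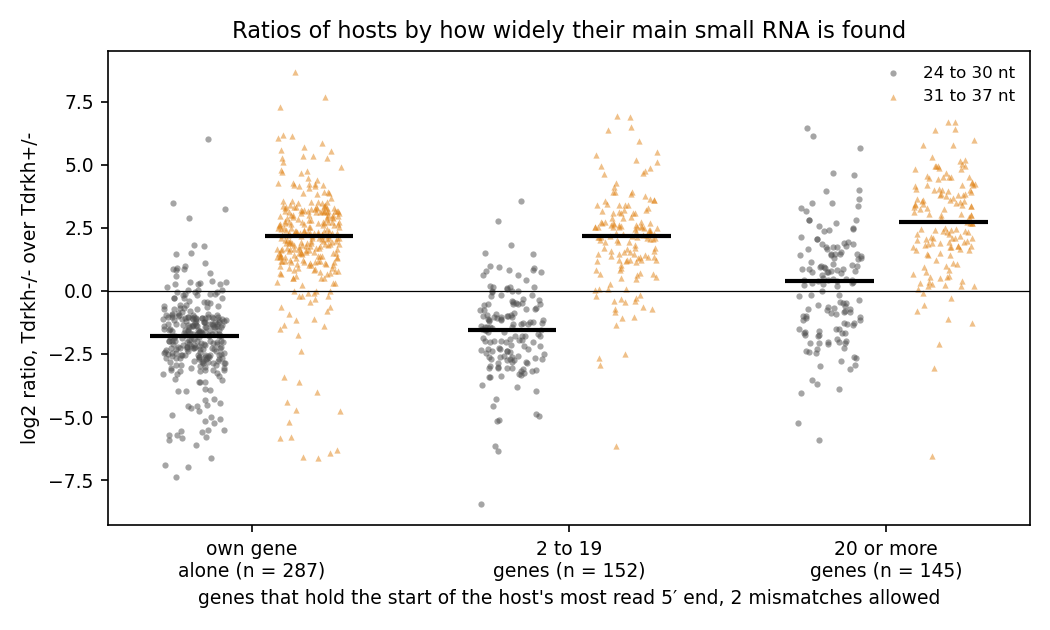
Log2 ratios of Tdrkh-/- to Tdrkh+/- at piRNA length (circles) and 31 to 37 nt (triangles) for hosts grouped by the number of annotated genes that hold the start of their most read 5′ end. Bars are medians. At piRNA length the median is -1.77 in hosts with the end in their own gene alone and 0.39 in those with 20 or more genes.

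Most host reads came from within exons and not across their junctions. In the 334 hosts with several exons, 0.441% of reads in Tdrkh-/- and 0.375% in Tdrkh+/- spanned a junction with at least 3 nt on each side, from 62 hosts. Gas5 alone gave 879 of the 1190 spanning reads in Tdrkh-/- and 522 of the 1126 in Tdrkh+/-, and without it the shares were 0.116% and 0.202%, in the opposite order. Had starts been spread evenly along the transcripts, 3.76% and 2.99% would have done so. Divided into 3 equal parts, the transcripts gave their last part 38.2% of the piRNA-length reads in Tdrkh-/- and 30.7% in Tdrkh+/-. Averaged with each host weighted equally these shares were 34.5% and 31.99%. Of the long reads, the last part had 35.8% in Tdrkh-/- and 36.5% in Tdrkh+/-. With each host weighted equally these were 35.5% and 32.4%, in the opposite order.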

How the data were processed

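The authors deposited a table per library that lists each distinct sequence of 18 to 40 nt once with its raw count of reads. Per the labels' protocols, RNAs of 15 to 40 nt were gel-purified and read on a Genome Analyzer II after preparation with an Illumina small RNA kit. The submitters' processing notes name Bowtie and mm9. Trimming of adapters is not given in the sources used here, nor are filters.

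Full-length exact matches of every sequence were sought in GENCODE M21 transcripts (GRCm38), in sense and antisense. Uniqueness therefore means 1 annotated gene and not 1 place in the genome. The matcher was written in Python 3.11.15 with NumPy 2.4.6, Numba 0.67.0, pandas 2.3.3 and SciPy 1.17.1, and figures were drawn with Matplotlib 3.10.9. A string search of 120 sequences served as its check, and 0 strands differed. MicroRNA reads are those of 18 to 25 nt sense to microRNA genes.

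Ratios are counts per microRNA read, Tdrkh-/- over Tdrkh+/-, with exact conditional binomial intervals at 95%, and shares have Wilson intervals. A count of 0 was set to 3 reads per library for a ratio, and no ratio was formed where both counts were at most 3. The distance from the middle of an interval to its bound had a median of 0.43 (log2) at 24 to 30 nt and 0.63 at 31 to 37 nt over the hosts. The ratios were tested on simulated counts with known fold changes.

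Hosts, lists and comparisons were chosen with earlier results of these data known. Named by rule are the 10 hosts with the most 24 to 30 nt reads; among hosts with at least 500 such reads, the 5 highest and 5 lowest ratios at each length; the 3 most read of each type; and all hosts in the lists of small nucleolar RNA hosts, microRNA hosts, imprinted RNAs, X inactivation centre and nuclear RNAs. Gm37158, 1700020N18Rik, 1700097M23Rik and the hosts at the minimum were named after their values were seen. Alternatives were other length windows, minimums and scalings, distinct sequences, sequences read once left out, and sequences with antisense matches left out. Leaving Gas5 out of the junction shares was chosen after seeing the data.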

Additional observations from a re-analysis of the deposited data

Results flagged for a closer look

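Reads outside the lengths and the strand described above also carried signal. Sequences of 38 to 40 nt sense to the hosts had 122868 reads in Tdrkh-/- and 14825 in Tdrkh+/- (ratio per microRNA read 7.88). Reads antisense to the hosts numbered 60807 in Tdrkh-/- and 68074 in Tdrkh+/- at 24 to 30 nt (ratio 0.849). At 31 to 37 nt they numbered 208264 in Tdrkh-/- and 16986 in Tdrkh+/- (ratio 11.7). All of these are far above the 3 reads that a count of 0 allows. Gm47652 had the most antisense reads of 24 to 30 nt, with 22048 in Tdrkh-/- and 18439 in Tdrkh+/-, against 4512 and 19353 in sense. Among pairs of sense and antisense 5′ ends of 24 to 30 nt reads that overlap by 1 to 24 nt, an overlap of 10 nt made up 8.93% of position pairs in Tdrkh-/- and 5.68% in Tdrkh+/-, against 4.17% for an even spread. The shares weighted by reads were 27.9% and 21.9%. At 31 to 37 nt they were 33.5% and 10.2% by reads and 8.25% and 6.69% by position.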

How the results depend on the processing

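Both medians kept their sign under every alternative run; of the recomputed summary values, 44 stayed close to the reported ones and 17 moved. Per read that matches a transcript, which moves every log2 ratio by -0.57, the median at 24 to 30 nt was -1.99; per read listed, which moves it by -0.42, it was -1.84. Windows of 26 to 28 and 33 to 36 nt gave -2.33 at the shorter length. Each distinct sequence counted once gave 1.26 at 31 to 37 nt, 57.2% for shared starts, and 5′ U shares at 24 to 30 nt of 69.3% in Tdrkh-/- and 68.7% in Tdrkh+/-, and at 31 to 37 nt of 70.6% and 68.4%. Without sequences read once, shared starts were 80.8% and the Tdrkh+/- 5′ U shares 80.8% and 74.1%. With at least 500 reads, fewer hosts enter, and the counts lower at 24 to 30 nt, higher at 31 to 37 nt and with more long reads per short read were 121, 135 and 171 of 180. With no minimum they were 1739 of 3216, 1725 of 2506 and 2666 of 4842, the last 55.1% in place of 95.4%. Unlike the others, the last count takes in genes too little read for a ratio. A gene without long reads in either library counts there as not having more. Single hosts that reversed were Snhg14 at 24 to 30 nt and Ftx at 31 to 37 nt. Snhg14 turned to 1.51 without antisense-matching sequences, on only 36 reads in Tdrkh-/- and 12 in Tdrkh+/-. Ftx turned to -0.011 per transcript-matching read. The cause was not tested for either host. Leaving out the 30 hosts lower at both lengths, or the hosts with antisense matches in at least 10% of reads, both chosen after seeing the data, gave medians of -1.33 and 2.34, and of -1.53 and 2.23. No paired analysis was possible because each genotype has 1 library, and for the same reason no replicate could be left out. Exact matching to annotated transcripts limits what can be called a host, since introns and unannotated copies were not analysed here.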

Other observations

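Some 5′ ends were read often in a single library. Of the 734 host ends with at least 200 reads of 24 to 37 nt in either library, 14 had 0 reads in Tdrkh-/- and 15 had 0 reads in Tdrkh+/-. In 1700020N18Rik, ends with 333 and 239 reads in Tdrkh+/- had none in Tdrkh-/-. The single end behind most reads of D130020L05Rik had 0 reads in Tdrkh-/- and 5227 in Tdrkh+/-, while sequences that differ from its first 24 nt at 1 base had 3110 in Tdrkh-/- and 8375 in Tdrkh+/-. An end of Gm37132 had 214 reads in Tdrkh-/- and 0 in Tdrkh+/-, beside 27722 and 43 reads of sequences that differ at 1 base. Gm42418, a lincRNA model on chromosome 17, held ends of both kinds: those with 6223 and 3709 reads in Tdrkh+/- had none in Tdrkh-/-, and those with 4526 and 1552 reads in Tdrkh-/- had none in Tdrkh+/-. Every read of Gm42418 also matched the opposite strand of another gene, and of its 24 to 30 nt reads 1.69% began with U in Tdrkh-/-, against 5.64% in Tdrkh+/-. Its reads are part of the pooled counts, length profiles and 5′ U shares of the hosts given above. Whether they are fragments of another abundant RNA was not tested.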
